A study of Mus musculus with 12 samples.

Results

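Membrane traffic depends on multisubunit complexes that catch vesicles, sort cargo or shape endosomal membranes, and most of their subunits carry the names Vps (vacuolar protein sorting, after yeast mutants), Trappc (transport protein particle, TRAPP) or Exoc (exocyst). The genes described here are those whose symbol is Vps, Trappc or Exoc followed by a digit, with 1 exocyst subunit left out by the rule. This gave 61 genes, 35 Vps, 15 Trappc and 11 Exoc, of 15803 transcripts that had a read in any library. Ribosome-protected mRNA fragments (footprints, ribosome profiling) and RNA (RNA-seq) had been sequenced from KPC cells, a mouse pancreatic ductal adenocarcinoma line from tumours of genetically engineered mice that carry Pdx1-Cre, which is active in the pancreas. The cells had no treatment by the labels, which is PBS by the methods and is called PBS here, or received Cis (cisplatin, 20 μM by the methods) for 6 or 21 h, with 2 libraries for each of the 3 groups in each assay, 12 libraries in all. The PBS libraries are the control of both times, and their own duration is not labelled. KPC cells are 1 line in culture, and nothing in the labels says that the 2 libraries of a group came from separate cultures, so p-values measure the spread between these libraries, which may be technical.

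Retromer recycles receptors from endosomes, retriever is its relative, and the ESCRT complexes bend membrane away from the cytosol to make multivesicular bodies. HOPS and CORVET tether late and early endosomes and share a core of subunits, while GARP and EARP tether vesicles at the trans-Golgi network and at recycling endosomes. TRAPP complexes activate the small GTPases Rab1 and Rab11 on Golgi membranes, the exocyst tethers secretory vesicles at the plasma membrane, and VPS13 proteins are long bridges that carry lipids between organelles. Subunits of such complexes are encoded by genes of very different length, and several subunits exist as a pair of paralogues of which a complex holds only one.

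Lysosomal genes are known for a palindromic E-box, TCACGTGA, the core of the CLEAR motif that TFEB-family factors read, so the promoters were searched for it on both strands (every such match is also a CACGTG E-box). Of the 61 genes, 42 had an entry among the promoters of 27025 genes that RefSeq annotates on GRCm38.p6, each from 250 bases before to 50 after a start. TCACGTGA stood in 3 of the 42, Vps16, Vps33a and Vps26a, and in 1.12% of all 27025. These windows are shown because Vps16 and Vps33a bind each other in HOPS and CORVET, and Vps26a has 2 annotated starts, each with a match in its window. Each is 100 bases, 5′ to 3′ on the gene's strand, with TCACGTGA in capitals.
Vps16, chr2:130424255-130424354, plus strand: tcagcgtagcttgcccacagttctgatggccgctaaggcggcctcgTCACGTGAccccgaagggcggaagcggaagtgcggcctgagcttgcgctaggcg
Vps33a, chr5:123572991-123573090, minus strand: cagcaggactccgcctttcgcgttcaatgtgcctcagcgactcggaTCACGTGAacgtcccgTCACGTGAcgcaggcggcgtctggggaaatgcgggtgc
Vps26a, chr10:62486935-62487034, minus strand: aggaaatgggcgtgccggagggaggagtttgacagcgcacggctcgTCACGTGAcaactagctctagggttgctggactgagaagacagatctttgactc
Vps26a, second start, chr10:62486697-62486796, minus strand: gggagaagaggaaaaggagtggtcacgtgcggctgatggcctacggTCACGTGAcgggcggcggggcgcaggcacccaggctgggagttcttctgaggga
None of these 3 genes passed the test in any comparison below, and their values stand with their complexes. CACGTG alone stood in 7 of the 42, Exoc1, Trappc10, Trappc5, Vps16, Vps26a, Vps33a and Vps50, and in 8.09% of all. Other motifs were searched in the same way. ACCGGAAGT (ETS) stood in 4 of the 42 and in 1.21% of all, and TGACG (part of a CRE) in 17 and in 23%. CCAAT stood in 8 and in 41.1%, and TATAAA in 4 and in 15.7%. TGATGNAA (CARE) stood in 1 and in 4.51%, and TGACGTCA (CRE) in 0 and in 2.03%. A match is a description of these letters and not a site shown to be used.

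Depth was 3375480 to 5204127 reads for footprint libraries and 1985344 to 2901692 for RNA libraries, of which 3 RNAs (Lars2, Tmem38b and Mettl26) took 51.8 to 56.6%, so RNA values rest on fewer reads. Levels are the deposited RPKM (reads per kilobase, scaled to the depth of the library), per coding length for footprints and per transcript length for RNA. They are relative to the library, so a change per cell in RNA or footprints that all genes shared would not show. The paper reports that Cis inhibited protein synthesis in a puromycin assay. A footprint level called higher is thus a larger share of the library and need not be more translation per cell. Epithelial Krt8, Krt18, Krt19 and Cdh1 and mesenchymal Vim were abundant in every library, while Epcam and Muc1, which many such tumours express, were near 0 (medians of 1.02 and 0.452 RPKM in footprints). The 8 epithelial markers summed to 9113 to 9795 RPKM in the PBS and 6 h footprint libraries and to 6728 and 6861 at 21 h. The 5 leukocyte markers summed to 1.73 to 2.35 in PBS and 6 h footprints and to 9.68 and 3.57 at 21 h. Cd68 (at most 5.398) and Lyz2 (at most 4.277) peaked in the first 21 h library, while Ptprc had 0.229 at most in any. In RNA the sum, all from Cd68, was 0 to 1.03 in PBS and 6 h and 2.13 and 4.27 at 21 h. The markers of fibroblasts summed to 1.28 to 4.09 in footprints (5 genes), those of endothelium to 0 to 0.666 (3 genes) and those of acinar cells to 0 to 2.60 (4 genes). Their part in the results was not tested. Scaling factors within an assay ran from 0.959 to 1.09.

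In PBS the complexes were translated at very different levels, as the footprint RPKM show. Vps25 of ESCRT-II stood highest with 285 and 317, followed by Trappc1 of the TRAPP core with 197 and 193. The retromer subunits came next and close together, Vps35 with 166 and 153 and Vps29 with 173 and 144. The retromer holds either Vps26a (69.4 and 75.1) or Vps26b (108 and 87.1), and the sum of this pair was 177 and 162. Within each PBS library Vps29 stood at 1.04 and 0.939 times Vps35, and Vps26a plus Vps26b at 1.07 and 1.06 times. Other complexes were uneven. Vps16 (30.4 and 29.5), Vps33a (30.3 and 38.4) and Vps41 (26.8 and 25.5) of HOPS stood well above Vps11 (8.98 and 8.28), Vps18 (6.12 and 7.86) and Vps39 (8.68 and 9.20), and Vps36 of ESCRT-II stood at 0.233 and 0.216 times Vps25.

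Footprints per RNA also differed between the genes in PBS. Over the 57 genes with a mean of at least 1 RPKM in both assays the ratio of footprint to RNA RPKM had a median of 3.62, a level without meaning by itself because 3 RNAs fill much of each RNA library. It was lowest for Vps9d1 (0.569), for Vps54 of GARP (5.99 in footprints against 8.96 in RNA, 0.668) and for Trappc10 of TRAPPII (4.36 against 6.16, 0.708). High ratios were found for Vps25 (14.4), Trappc5 (10.8), Vps29 (9.91) and Vps4b (9.78), and Trappc2 had 17.2 on an RNA level of only 0.755 and 1.28. These ratios are descriptions of 2 libraries per assay. Exoc3l and Exoc3l2, relatives of the exocyst subunit Exoc3, had at most 0.173 RPKM in any footprint library.

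**Figure D1:**
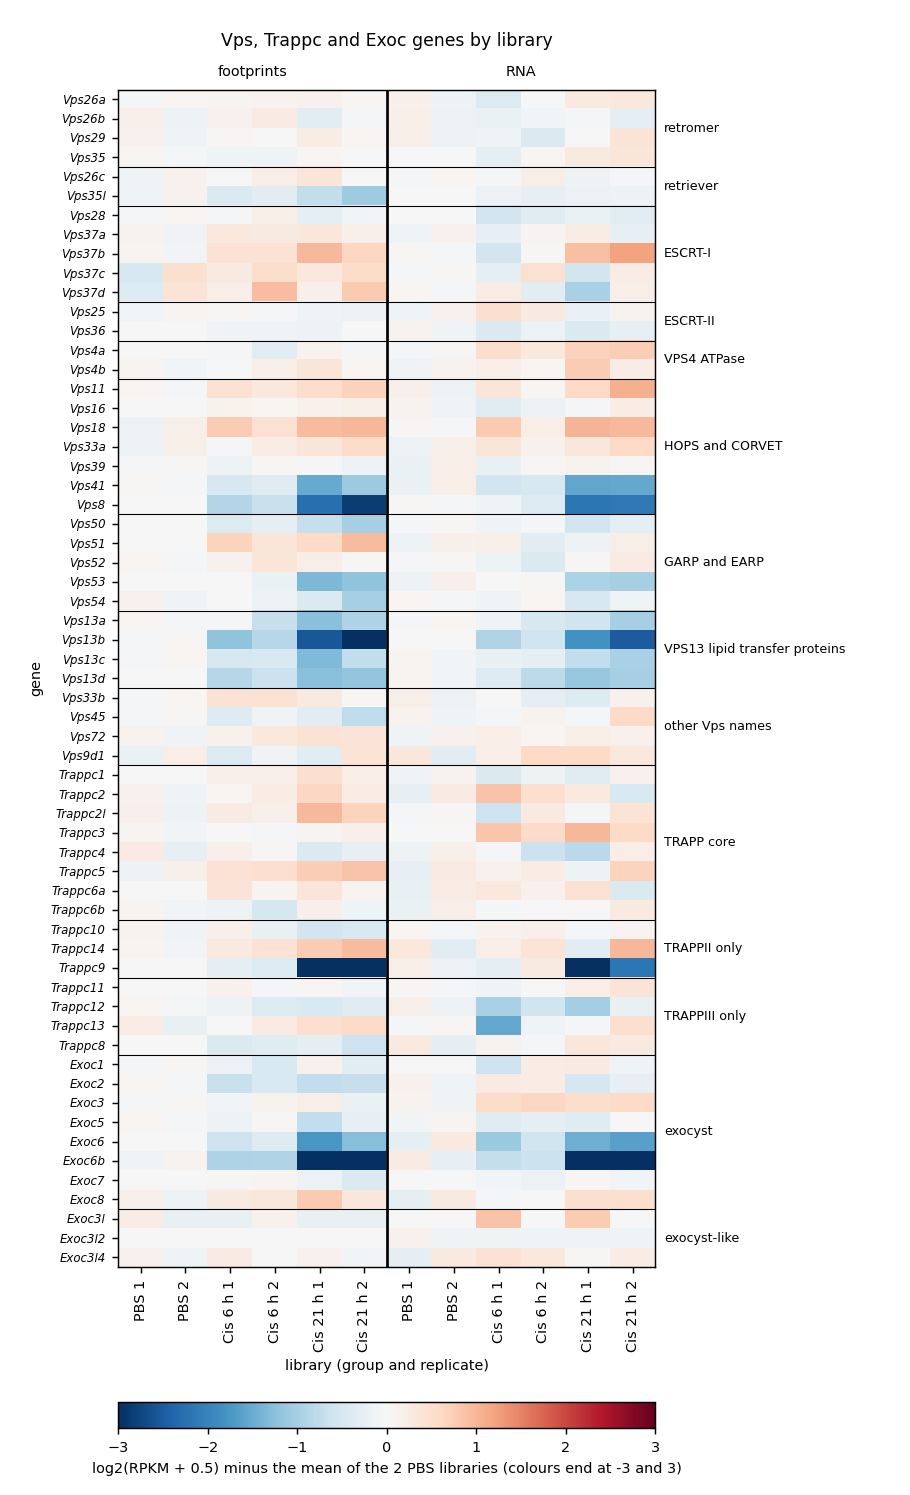
Heat map of the 61 genes (rows, by complex) in the 12 libraries (columns, footprints left and RNA right), as log2(RPKM + 0.5) minus the mean of the PBS libraries of the same assay. Blue rows at Cis 21 h mark genes such as Exoc6b, Trappc9, Vps13b and Vps8, which are low in both replicates of both assays, and the retromer rows stay pale.

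After 21 h of Cis, HOPS and CORVET, GARP and EARP, TRAPP and the exocyst each held subunits that were lower beside subunits that were higher or not called. Exoc6b and Trappc9 had the largest fitted falls in footprints against PBS, and no subunit of retromer, ESCRT-II or the VPS4 ATPases was called in footprints. Values were fitted with limma on log2(scaled RPKM + 0.5) over all transcripts with a mean of at least 1 RPKM, and a gene was called at an adjusted p under 0.05 (Benjamini-Hochberg over all transcripts tested). Of the 61 genes 58 were tested in footprints, and 11 were higher and 16 lower at 21 h than in PBS. Among all 10383 transcripts 18.9% were called higher and 20.2% lower, beside 19% and 27.6% of the 58 genes. The distance of the lower genes from the background depended on the fit, since 12 of 58 (20.7%) were lower without scaling, beside 19% of all, and 12 of 58 when only the 2 groups compared were fitted, beside 18.5% of all. The median change of the 58 was -0.02 on the log2 scale, and that of all transcripts 0.01. The Exoc group had 3 lower and 1 higher of 9 tested, the Trappc group 3 lower and 5 higher of 15, and the Vps group 10 lower and 5 higher of 34. Vps13c, Exoc3l and Exoc3l2 were below the filter. A two-sided exact permutation test of 1 gene, 2 libraries a side, could not reach a p below 0.333 and was not used.

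**Figure D2:**
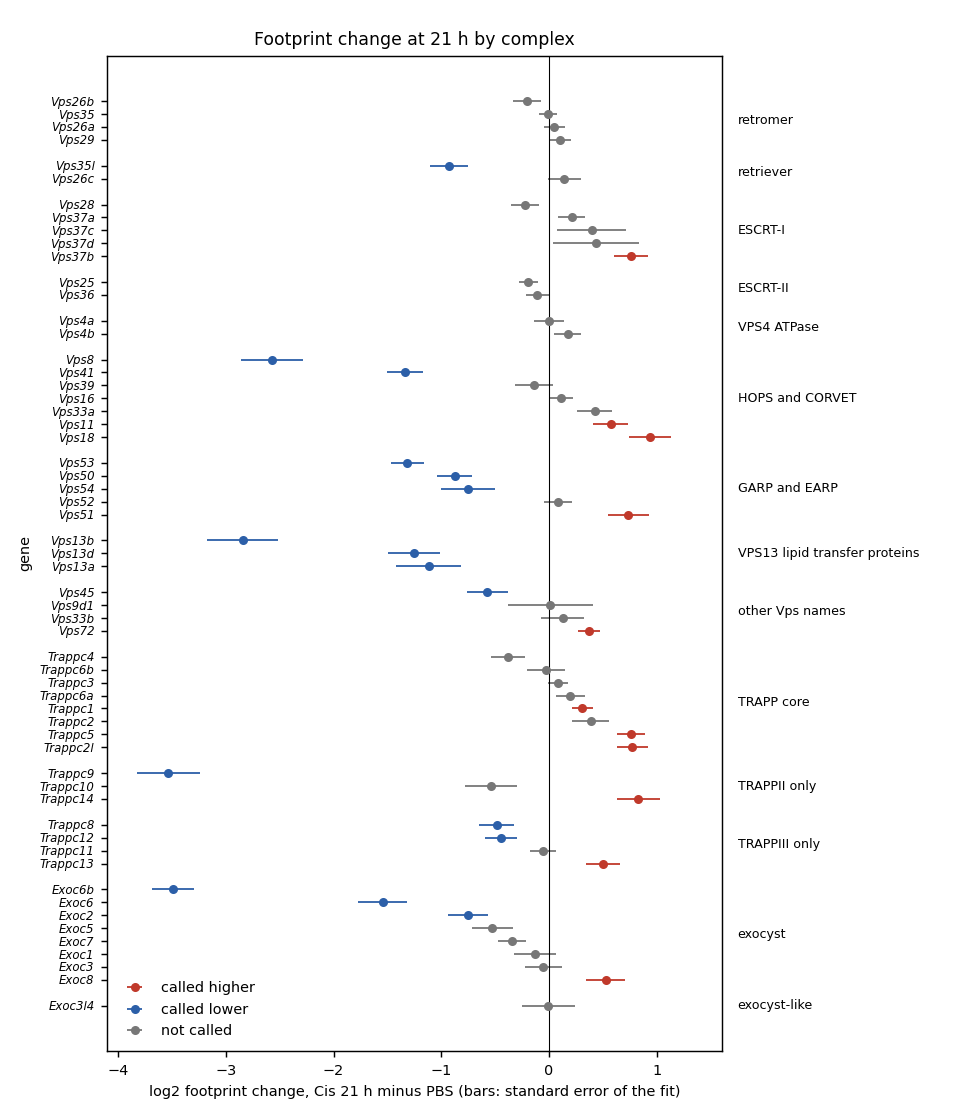
Log2 change in footprints at 21 h against PBS for the 58 genes tested (points, with the standard error of the fit as bars), grouped by complex, in red where called higher, blue where called lower and grey otherwise. Retromer, ESCRT-II and the VPS4 ATPases hold grey points near 0, while HOPS and CORVET, GARP and EARP, TRAPP and the exocyst each hold both colours.

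In HOPS and CORVET 2 of the 7 subunits were lower and 2 higher at 21 h. Vps8, a subunit of CORVET only, had footprints of 6.36 and 6.46 RPKM in PBS, 3.23 and 3.87 at 6 h, and 0.949 and 0.467 at 21 h. Each group lay apart from the next, and the change at 21 h was -2.57 ± 0.29 (log2 ± SE, adjusted p = 0.000309). Vps41, a subunit of HOPS only, went from 26.8 and 25.5 through 18.7 and 20.3 to 8.90 and 12.0, a change of -1.33 ± 0.17 (adjusted p = 0.000519). The shared core subunit Vps18, a RING protein, moved the other way, from 6.12 and 7.86 in PBS to 12.0 and 9.74 at 6 h and 13.8 and 14.4 at 21 h, a change of 0.94 ± 0.19 (adjusted p = 0.00569). Vps11, its core partner, was higher by 0.57 ± 0.16 (adjusted p = 0.0223), a call that was lost without the second 21 h library (0.0877) or either PBS library (0.07 and 0.104). The core pair Vps16 and Vps33a was not called (0.11 ± 0.11 and 0.42 ± 0.16), nor was Vps39, the other subunit of HOPS only (-0.14 ± 0.18).

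Taken within a library, which no scaling can alter, the balance of HOPS and CORVET subunits shifted in both 21 h libraries. Vps41 had 4.38 and 3.24 times the footprint RPKM of Vps18 in PBS, 1.56 and 2.08 times at 6 h, and 0.643 and 0.830 times at 21 h. Vps8 stood at 0.708 and 0.779 times Vps11 in PBS and at 0.0748 and 0.0329 times at 21 h. These pairs, and those given below, were chosen after the values were seen.

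GARP and EARP share Vps51, Vps52 and Vps53, with Vps54 only in GARP and Vps50 only in EARP, and 3 of these 5 were lower and 1 higher. Vps53 had 19.2 and 18.9 RPKM in PBS and still 19.1 and 16.6 at 6 h, then 7.17 and 7.91 at 21 h, a change of -1.32 ± 0.15 (adjusted p = 0.000367). Its groups overlapped at 6 h and lay apart at 21 h. Vps50 was lower by -0.87 ± 0.16 (adjusted p = 0.00317) and Vps54 by -0.75 ± 0.25 (adjusted p = 0.0418). Vps51 was higher by 0.74 ± 0.19 (adjusted p = 0.016), with 7.29 and 7.13 in PBS against 11.2 and 14.3, and Vps52 changed by 0.08 ± 0.13 (95% interval -0.21 to 0.37). Relative to Vps52 in the same library, Vps53 went from 0.666 and 0.711 to 0.227 and 0.278, and Vps51 from 0.253 and 0.268 to 0.354 and 0.501. The call for Vps54 was lost without the second 21 h library (adjusted p = 0.191), either PBS library (0.19 and 0.0968) or either 6 h library (0.0608 and 0.0599), and that for Vps51 without the second 21 h library (0.081) or either PBS library (0.0687 and 0.0693).

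Of the 7 exocyst subunits covered, Exoc6 (the homologue of yeast Sec15, which binds Rab11) has the paralogue Exoc6b, and both fell. Exoc6b had 16.4 and 19.1 RPKM in PBS, 9.03 and 9.14 at 6 h, and 1.12 and 1.18 at 21 h, a change of -3.49 ± 0.20 (adjusted p = 1.22e-05). Exoc6 went from 9.24 and 9.44 through 5.87 and 7.06 to 2.45 and 3.53, a change of -1.54 ± 0.23 (adjusted p = 0.00116). The groups of each gene did not overlap, and the sum of the pair went from 25.6 and 28.5 in PBS to 14.9 and 16.2 at 6 h and 3.57 and 4.71 at 21 h. Exoc6b was the more translated paralogue in PBS, at 1.77 and 2.02 times Exoc6, and the less translated at 21 h, at 0.455 and 0.334 times.

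Among the other exocyst genes, Exoc2, a Ral-binding subunit, was lower by -0.75 ± 0.19 (adjusted p = 0.013) and Exoc8, the other Ral-binding subunit, higher by 0.53 ± 0.18 (adjusted p = 0.0465). Exoc2 lost its call without either PBS library (adjusted p = 0.0789 and 0.0549). Exoc8 lost its call without any one of 5 libraries, with adjusted p-values from 0.0667 (first 6 h library) to 0.218 (first 21 h library) and 0.223 (second PBS library), and 0.0677 and 0.0689 for the second 6 h and first PBS libraries. Exoc5 (-0.53 ± 0.19) and Exoc7 (-0.34 ± 0.13), the latter a subunit that binds membrane phosphoinositides, missed the threshold at adjusted p = 0.0575 and 0.0614. Exoc1, Exoc3 and the Exoc3 relative Exoc3l4 were not called, with changes of -0.13 ± 0.20, -0.05 ± 0.17 and -0.01 ± 0.24.

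The TRAPP core is shared by TRAPPII and TRAPPIII, and 3 of its 8 genes here were higher and none lower. Trappc2l had 35.9 and 29.3 RPKM in PBS, 38.8 and 36.2 at 6 h, and 63.8 and 51.5 at 21 h, a change of 0.77 ± 0.14 (adjusted p = 0.00313). Trappc5 had 48.7 and 60.1 in PBS, 73.7 and 76.7 at 6 h, and 90.4 and 98.5 at 21 h, with no overlap, a change of 0.76 ± 0.13 (adjusted p = 0.00199). Trappc1 was higher by 0.31 ± 0.10 (adjusted p = 0.0376), but it lost its call without any one of 5 libraries (adjusted p from 0.0668 and 0.0675 without the 6 h libraries to 0.112 and 0.109 without the PBS libraries and 0.174 without the first 21 h library). Trappc2 (sedlin), the relative of Trappc2l, had 19.2 and 15.8 in PBS, 18.3 and 20.5 at 6 h and 27.1 and 20.5 at 21 h, which was not called (0.39 ± 0.17, adjusted p = 0.106). Trappc3, Trappc4, Trappc6a and Trappc6b ranged from -0.38 ± 0.16 (Trappc4) to 0.20 ± 0.14 (Trappc6a) without a call.

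TRAPPII is defined by Trappc9 and Trappc10, with Trappc14 as a further subunit. Trappc9 had 12.4 and 12.4 RPKM in PBS, 10.0 and 9.28 at 6 h, and 1.03 and 0.335 at 21 h, a change of -3.54 ± 0.29 (adjusted p = 7.26e-05). Both 6 h libraries lay below both PBS libraries, but the change at 6 h was not called (-0.36 ± 0.29, adjusted p = 0.521). Trappc10 had 4.68 and 4.04 in PBS and 2.80 and 3.03 at 21 h, which was not called (-0.54 ± 0.24, adjusted p = 0.11), so that Trappc9 went from 2.64 and 3.08 times Trappc10 in PBS to 0.368 and 0.110 times at 21 h. Trappc14 had 5.08 and 4.44 in PBS, 5.88 and 6.64 at 6 h and 8.42 and 9.71 at 21 h, a change of 0.83 ± 0.20 (adjusted p = 0.0105, and 0.066 without the second PBS library).

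Of the TRAPPIII subunits, Trappc8 (-0.49 ± 0.16, adjusted p = 0.0413) and Trappc12 (-0.45 ± 0.15, adjusted p = 0.0434) were lower, Trappc13 was higher (0.50 ± 0.16, adjusted p = 0.0356) and Trappc11 was not called (-0.06 ± 0.12). These 3 calls sat close to the threshold. Leaving out single libraries ended the call for Trappc12 in all 6 cases (adjusted p from 0.0527 without the second 6 h library to 0.162 without the first PBS library). It ended that for Trappc8 in 5 (from 0.0616 without the first 6 h library to 0.195 without the second 21 h library, the first 21 h library being the exception), and that for Trappc13 without the first or second 21 h library (0.0692 and 0.111) or the second PBS library (0.215).

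All 3 VPS13 genes that passed the filter were lower at 21 h. Vps13b, which acts at the Golgi and is mutated in Cohen syndrome, had 4.67 and 4.98 RPKM in PBS, 1.80 and 2.42 at 6 h, and 0.408 and 0.120 at 21 h, a change of -2.84 ± 0.33 (adjusted p = 0.000347). At 21 h Vps13b had 18 and 5 footprint reads and Trappc9 13 and 4. Over the alternatives the change of Vps13b ran from -4.37 to -2.23, beside -4.31 to -3.04 for Trappc9 and -3.91 to -3.14 for Exoc6b. These 3 falls therefore cannot be ranked firmly. Vps13d, which acts at mitochondria and peroxisomes, had 5.06 and 5.08 in PBS, 2.59 and 3.06 at 6 h and 1.83 and 1.93 at 21 h (-1.26 ± 0.24, adjusted p = 0.00422). Vps13a went from 4.47 and 4.04 through 4.13 and 2.46 to 1.49 and 2.02 (-1.12 ± 0.30, adjusted p = 0.0181), and lost its call without the first 21 h library (0.0716) or either PBS library (0.0942 and 0.0766). Vps13c, which links the ER to late endosomes, was too low to test, with 1.26 and 1.43 in PBS, 0.815 and 0.843 at 6 h, and 0.241 and 0.611 at 21 h.

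ESCRT-I, ESCRT-II and the VPS4 ATPases, which take the ESCRT machinery apart, held 1 called gene among 9. Vps37 is the ESCRT-I subunit with 4 paralogues, and of these only Vps37b passed the test, with 13.3 and 11.8 RPKM in PBS, 17.2 and 17.0 at 6 h, and 25.1 and 19.4 at 21 h (0.76 ± 0.16, adjusted p = 0.00634). Vps37a, the more translated paralogue, had 36.1 and 31.0 in PBS, 42.1 and 40.5 at 6 h and 42.8 and 37.0 at 21 h (0.21 ± 0.12). Vps37c had 3.46 and 7.31 in PBS, 6.26 and 7.57 at 6 h and 6.42 and 7.59 at 21 h (0.39 ± 0.32), and its PBS libraries differed by more than the groups. Vps37d had 1.47 and 3.01, then 2.45 and 4.54, then 2.43 and 4.02 (0.43 ± 0.40). As summed RPKM, which were not tested, the 4 together had 54.3 and 53.1 in PBS, 68.0 and 69.6 at 6 h and 76.7 and 68.1 at 21 h. Vps28, the ESCRT-I subunit that contacts ESCRT-II, changed by -0.22 ± 0.13, Vps25 by -0.19 ± 0.09, Vps36 by -0.11 ± 0.10, Vps4a by 0.00 ± 0.14 and Vps4b by 0.17 ± 0.12.

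No retromer subunit was called. The interval of Vps26b was the widest of theirs and held falls as large as the one called for Trappc12. Vps35 changed by -0.01 ± 0.08 on the log2 scale at 21 h (95% interval -0.21 to 0.18), Vps29 by 0.10 ± 0.10 (-0.13 to 0.34), Vps26a by 0.05 ± 0.10 (-0.18 to 0.27) and Vps26b by -0.21 ± 0.13 (-0.51 to 0.09). Within the 21 h libraries Vps29 stood at 1.10 and 1.04 times Vps35, and the Vps26 pair at 0.939 and 1.08 times. Retriever differed in this, since Vps35l went from 19.4 and 23.5 RPKM through 15.6 and 17.0 to 12.7 and 10.0 (-0.93 ± 0.18, adjusted p = 0.00369) and Vps26c, its partner, changed by 0.14 ± 0.16. Vps35l stood at 0.422 and 0.434 times Vps26c in PBS, 0.317 and 0.298 times at 6 h, and 0.197 and 0.202 times at 21 h.

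The remaining Vps names belong to none of the groups above. Vps45, an SM protein for endosomal SNAREs, was lower by -0.57 ± 0.19 (adjusted p = 0.0422), a call lost without the second 21 h library (0.211), either PBS library (0.108 and 0.167) or either 6 h library (0.0507 and 0.0523). Vps72, which despite its name is a subunit of chromatin remodelling complexes, was higher by 0.37 ± 0.10 (adjusted p = 0.0196, but 0.0661 without the first 21 h library and 0.109 without the second PBS library). Vps33b, the SM protein of the CHEVI complex, and Vps9d1 were not called (0.13 ± 0.20 and 0.01 ± 0.39).

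**Figure D3:**
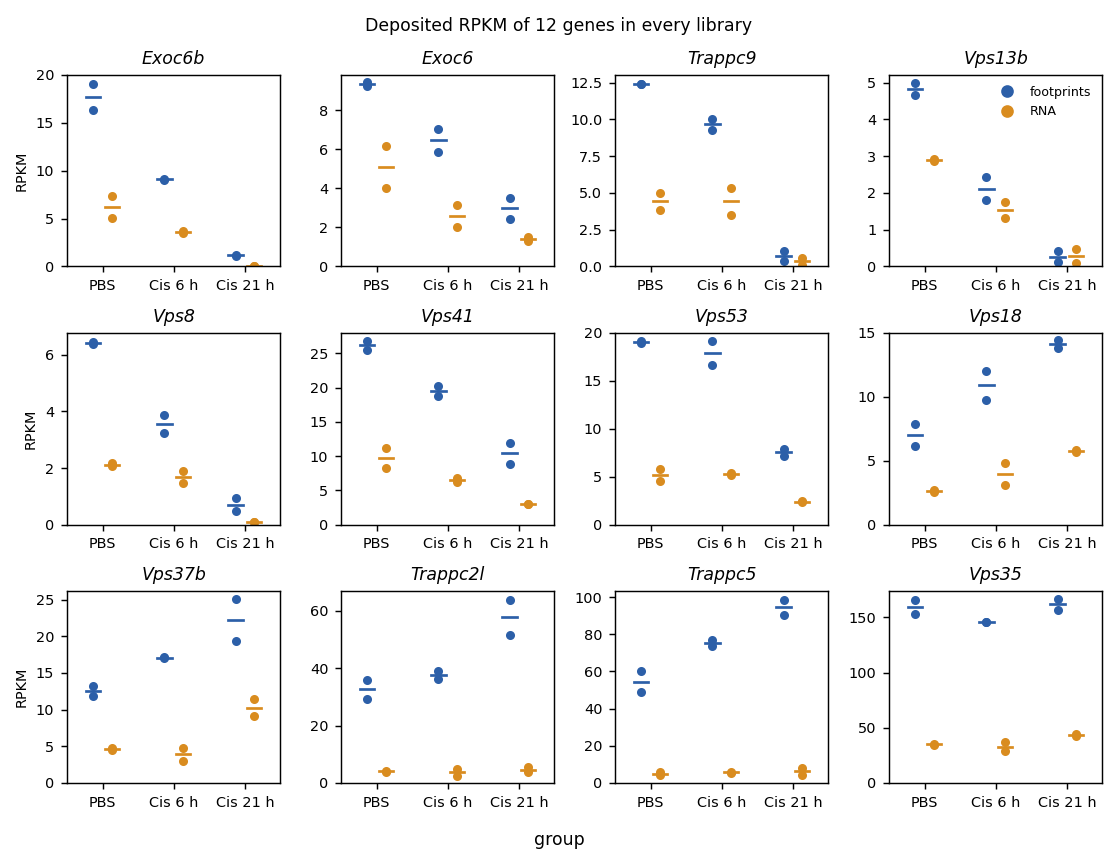
Deposited RPKM (vertical axes, starting at 0) of 12 genes in PBS, Cis 6 h and Cis 21 h libraries, footprints in blue and RNA in orange, each point a library and each bar the mean of 2. Exoc6b, Exoc6, Vps8 and Vps41 step down at both times, Trappc9 and Vps53 drop mainly after 6 h, and Vps35 stays within 145 to 167 RPKM in footprints.

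What the lower genes shared, and the rule did not use, was length. Genomic span (start to end of the gene in the RefSeq table of GRCm38.p6, used as a length only) was known for 60 of the 61 genes, all but Trappc14. The 16 lower genes spanned 59.8 to 560 kb (median 148 kb), the 10 higher genes with a span 1.81 to 36.3 kb (median 9.53 kb), and the genes without a call 3.79 to 59.2 kb (median 22.0 kb). Thus each of the 16 tested genes of at least 59.8 kb was called lower, and none of the 41 shorter ones was. This clean split rests on unsteady calls near the cut. Vps45 (59.8 kb) and Trappc12 (59.9 kb) each lost their call in 11 of 16 alternatives, Trappc8 (79.2 kb) in 10 and Vps54 (82.1 kb) in 9. Just under the cut, Trappc10 (59.2 kb) and Exoc5 (54.7 kb) had falls of similar size without a call. Over all tested transcripts with a span, 57.1% of the 2193 of at least 59.8 kb were called lower and 10.3% of the 8145 shorter ones. This length was read off the genes after their values were seen and describes them only. With the limits of 20, 50 and 100 kb, 12 of 12 genes over 100 kb and 4 of 6 from 50 to 100 kb were lower, against 74.9% and 33.6% of all transcripts, and 8 of 23 genes under 20 kb were higher, against 28.9%.

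The Spearman correlation of span with the footprint change at 21 h was -0.746 over the 57 genes and -0.492 over all 10338 transcripts with a span, as descriptions, since genes of a library share its depth and are not replicates. Without the VPS13 genes, which also have very long coding sequences, it was -0.703 (54 genes). With coding length in place of span it was -0.573 over the 57 genes and -0.209 over all. At 6 h, where limma called none of these genes, span and change had a correlation of -0.748, beside -0.436 over all, with the same PBS libraries as control. For RNA at 21 h it was -0.506 over 56 genes and -0.374 over all. For the footprint change minus the RNA change at 21 h it was -0.504 over 56 genes and -0.236 over all. This value was computed with the pseudocount of 0.5 only, which shrinks changes most where RPKM are low, as in the RNA of several long genes. Over the alternatives the RNA change ran from -4.07 to -1.52 for Vps8 and from -3.87 to -2.04 for Trappc9. How much of the correlation comes from the pseudocount was not tested.

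**Figure D4:**
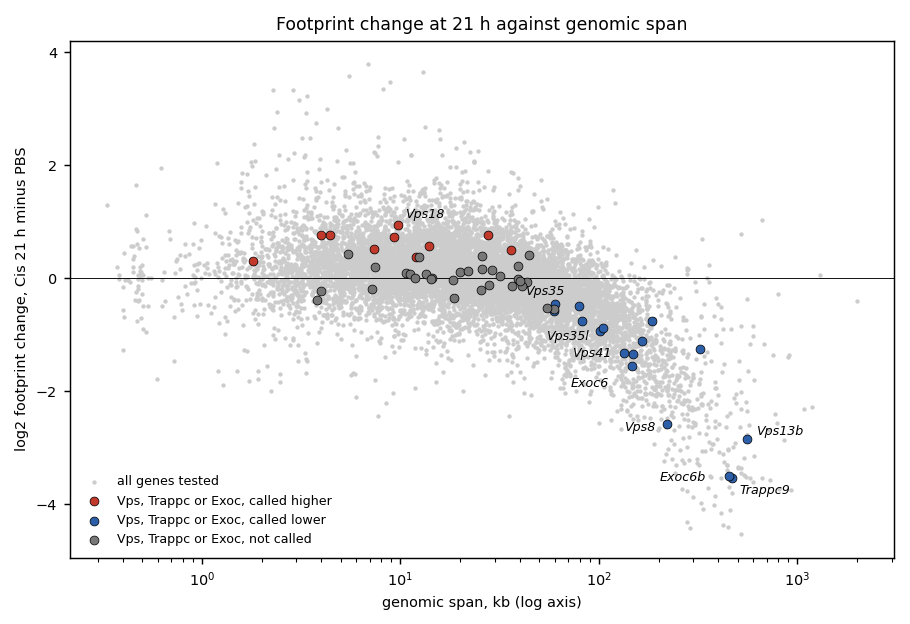
Log2 footprint change at 21 h against PBS (vertical axis) by genomic span in kb (horizontal log axis), for all transcripts tested (grey) and the 57 genes with a span (coloured by call). The blue points lie at 59.8 kb and above and fall along the lower right of the grey cloud, with Exoc6b, Trappc9 and Vps13b at the far end.

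RNA showed the same long genes with fewer calls. At 21 h 4 of 57 genes tested were higher and 8 lower, beside 11.6% and 12.2% of all 9443 transcripts, and their median change was -0.06 on the log2 scale beside 0.02 for all. The 8 lower were Exoc6b (-3.60 ± 0.30, adjusted p = 9.92e-05), Trappc9 (-2.62 ± 0.35, 0.00105), Vps13b (-2.17 ± 0.35, 0.00249), Vps8 (-2.15 ± 0.33, 0.00205), Vps41 (-1.61 ± 0.21, 0.000935), Exoc6 (-1.60 ± 0.30, 0.00522), Vps13d (-1.13 ± 0.26, 0.013) and Vps53 (-1.04 ± 0.23, 0.00982). Each of the 8 was also lower in footprints. Exoc6b had RNA of 7.32 and 5.07 RPKM in PBS, 3.52 and 3.74 at 6 h, and 0 and 0.088 at 21 h. The last pair is 1 read, against 178 in PBS, or 0.644% of PBS (95% interval 0.0162 to 3.64%, counting error only). The fitted RNA change of Exoc6b therefore depends on the pseudocount and ran from -6.47 to -2.76 over the alternatives. Trappc9 had RNA of 5.02 and 3.83, 3.48 and 5.35, then 0.106 and 0.591, and Vps13b 2.86 and 2.93, 1.32 and 1.76, then 0.468 and 0.104. Vps8 had 2 reads at 21 h against 57, or 4.02% of PBS (0.476 to 15.2%). The fitted RNA changes of Vps8 (-4.07 to -1.52), Trappc9 (-3.87 to -2.04) and Vps13b (-3.64 to -1.62) also varied widely over the alternatives.

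Without the second PBS library the RNA calls for Exoc6 (adjusted p = 0.0575), Vps53 (0.0804) and Vps13d (0.0553) were lost, and Vps13d also lost its call without the first PBS (0.0945) or first 21 h library (0.0537).

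The 4 genes with higher RNA were Vps37b, Vps18, Trappc3 and Vps4a. Vps37b RNA was 4.83 and 4.51 RPKM in PBS, 3.00 and 4.81 at 6 h, and 9.19 and 11.4 at 21 h (0.97 ± 0.24, adjusted p = 0.0176). Vps18 RNA was 2.71 and 2.55, then 4.85 and 3.10, then 5.82 and 5.66 (0.92 ± 0.26, adjusted p = 0.0286). Trappc3 RNA was 12.5 and 12.1, then 22.2 and 18.5, then 25.1 and 19.0 (0.72 ± 0.18, adjusted p = 0.0177), while its footprints changed by 0.08 ± 0.09. Vps4a RNA changed by 0.63 ± 0.16 (adjusted p = 0.0182) and its footprints by 0.00 ± 0.14. None of these 4 calls was held by every set of libraries. Without the first or second PBS library all 4 were lost, with adjusted p-values of 0.07 and 0.0933 for Vps37b, 0.0981 and 0.12 for Vps18, 0.073 and 0.0913 for Trappc3, and 0.1 and 0.0714 for Vps4a. They were also lost without the first 21 h library for Vps18 (0.111), Trappc3 (0.113) and Vps4a (0.072), and without the second for Vps37b (0.101), Vps18 (0.0855) and Vps4a (0.0695).

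Of the 16 genes with lower footprints 14 had RNA changes below 0, with medians over the 16 of -1.19 in footprints and -0.95 in RNA (-0.82 and -0.63 over all transcripts with lower footprints), and the exceptions were Trappc8 (RNA 0.23 ± 0.24) and Vps45 (0.18 ± 0.29). Of the 11 with higher footprints 9 had RNA changes above 0, with medians over the 11 of 0.74 in footprints and 0.17 in RNA (0.68 and 0.54 over all transcripts with higher footprints), and the exceptions were Trappc1 (-0.20 ± 0.17) and Vps51 (-0.06 ± 0.26). These genes were selected by their footprint change and not by RNA. Among all transcripts tested in both assays, 93.7% of those with lower and 90.9% of those with higher footprints had RNA changes of the same sign. Translation efficiency (TE) is the footprint change minus the RNA change, tested in limma as an assay-by-Cis interaction with all 12 libraries in the fit. It gave no call among the 57 genes at 21 h, where 0.409% of all 9295 transcripts were called. At an unadjusted p under 0.05 stood 7 of the 57 genes, beside 1183 of the 9295 transcripts, a similar share. Those 7 genes were Trappc1 (0.51 ± 0.21), Vps51 (0.80 ± 0.33), Trappc3 (-0.64 ± 0.21), Vps4a (-0.63 ± 0.20), Vps35l (-0.68 ± 0.26), Trappc8 (-0.71 ± 0.30) and Vps45 (-0.75 ± 0.33), and their adjusted p-values ran from 0.24 to 0.385. Voom called 0 genes for TE at 21 h, with 7 at an unadjusted p under 0.05.

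**Figure D5:**
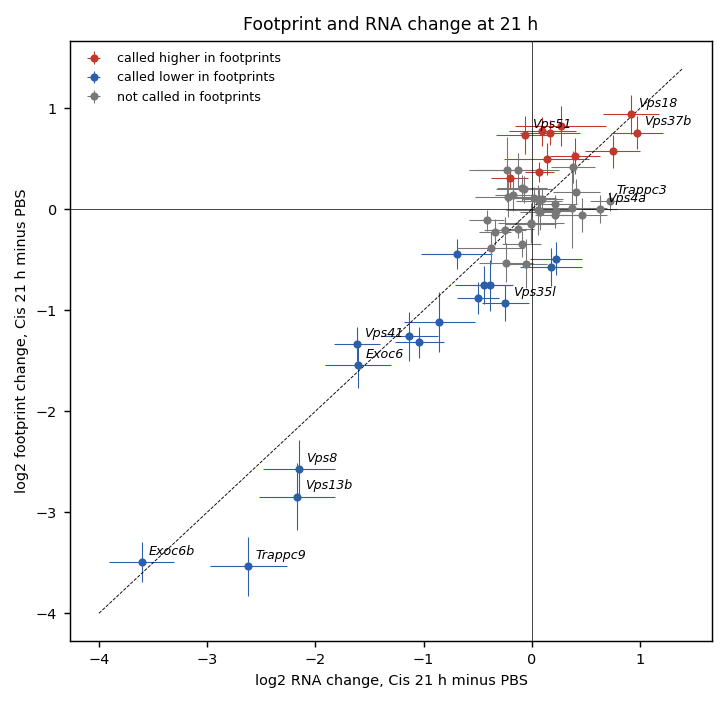
Log2 change at 21 h against PBS in RNA (horizontal) and footprints (vertical) for the 57 genes tested in both, with standard errors as bars and a dashed line of equal change. The lower genes run along the line. The place of Exoc6b in RNA is set by the pseudocount at 1 read, and that of Vps8 depends on it at 2 reads. Trappc3 and Vps4a lie right of the line near 0 in footprints, and Vps51 lies above the line.

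At 6 h no gene of the 58 was called in footprints by limma, where 2.04% of all transcripts were. At an unadjusted p under 0.05 stood 13 of the 58, beside 2217 of all 10383 transcripts, a similar share. Nearest to the threshold was Exoc6b (-0.94 ± 0.20, adjusted p = 0.0525), followed by Trappc5 (0.46 ± 0.13, adjusted p = 0.0968). Of the 13, Vps13b (-1.05 ± 0.33), Exoc6b, Vps8 (-0.79 ± 0.29), Vps13d (-0.76 ± 0.24), Exoc2 (-0.57 ± 0.19), Vps41 (-0.43 ± 0.17) and Trappc8 (-0.40 ± 0.16) had lower values, and Vps18 (0.59 ± 0.19), Vps51 (0.50 ± 0.19), Trappc5, Vps37b (0.42 ± 0.16), Vps11 (0.38 ± 0.16) and Vps37a (0.28 ± 0.12) higher ones. A count-based test of the recovered reads (voom) called 10 at 6 h, beside 12.3% of all transcripts by the same test. It put Vps13b, Exoc6b, Vps8, Vps13d, Exoc2, Vps41, Trappc8 and Vps35l lower, by -1.25 ± 0.17 (Vps13b, adjusted p = 3.03e-06) to -0.40 ± 0.13 (Vps35l, 0.0438), and Vps18 (0.66 ± 0.18, 0.0109) and Trappc5 (0.46 ± 0.15, 0.0369) higher. In RNA at 6 h limma called 0 of the 57 genes, as of all transcripts (0%). There 6 genes had an unadjusted p under 0.05, beside 1086 of all 9443 transcripts. Voom called Vps13b (-0.83 ± 0.22) and Vps13d (-0.63 ± 0.16) lower in RNA, beside 1.82% of all transcripts called lower. TE at 6 h gave 0 calls in limma (0% of all), with 6 genes at an unadjusted p under 0.05, beside 710 of all 9295 transcripts. Voom gave 0 calls for TE at 6 h, with 6 genes at an unadjusted p under 0.05.

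Between 6 and 21 h 10 genes went lower in footprints and 1 higher, where 15.7% and 15% of all transcripts did, and in RNA 7 went lower and 1 higher, where 8.21% and 7.53% of all did. In footprints the steps from 6 to 21 h were -3.18 ± 0.29 for Trappc9, -2.56 ± 0.20 for Exoc6b and -1.21 ± 0.15 for Vps53. For Trappc9 and Vps53, which had changed by -0.36 ± 0.29 and -0.11 ± 0.15 by 6 h, most of the fall came in this interval. The higher one was Trappc2l (0.58 ± 0.14), whose call was lost without the first 21 h library or either 6 h library. Of the lower ones, Exoc7, Vps35l and Vps50 lost their calls without the second 21 h library or any 1 of the PBS and 6 h libraries.

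The genes that work with these complexes, 78 partners in 5 lists, were also called in both directions. Of the 77 tested in footprints 12 were higher and 21 lower at 21 h, beside 18.9% and 20.2% of all transcripts, with a median change of -0.10 on the log2 scale beside 0.01. Of the 8 exocyst and TRAPP partners 6 were lower and none higher, all small GTPases, led by Rala (-0.88 ± 0.12, adjusted p = 0.000922), the Ral GTPase that binds the exocyst, and Rab10 (-0.63 ± 0.08, 0.000429). Of 17 retromer and retriever partners 7 were lower and 1 higher, led by Commd1 (-1.56 ± 0.20, 0.000573) and Commd9 (0.89 ± 0.16, 0.0026), both of the COMMD group that joins retriever. Of 20 ESCRT partners 3 were lower and 6 higher, led by Chmp7 (0.84 ± 0.17, 0.00479) of ESCRT-III and Hgs (0.84 ± 0.11, 0.000542), which captures ubiquitinated cargo. Of 13 partners of HOPS, CORVET, CHEVI and the class III PI3-kinase 2 were lower and 2 higher, led by Uvrag (-1.73 ± 0.28, 0.00174) and Atg14 (0.87 ± 0.21, 0.0114), alternative subunits of that kinase. Of 19 other tethers and golgins 3 were lower and 3 higher, led by Cog5 (-2.26 ± 0.21, 0.000141) of the COG complex and Nbas (-2.16 ± 0.31, 0.000983). Among the partners all 5 over 100 kb were lower, where 74.9% of all transcripts were, while 4 of 20 under 20 kb were lower and 7 higher, beside 7.34% and 28.9% of all. Span had a correlation of -0.510 with the change over the 77 partners, beside -0.492 over all transcripts. In RNA at 21 h 4 of 76 partners were higher and 9 lower, beside 11.6% and 12.2% of all. At 6 h none was called in footprints or RNA. At an unadjusted p under 0.05 stood 15 partners in footprints and 5 in RNA, beside 2217 of 10383 and 1086 of 9443 transcripts.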

How the data were processed

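Ribosome profiling and RNA-seq of KPC cells in 3 groups of 2 libraries were used, with groups and replicate numbers from the labels. Per library, the authors deposited RPKM for 1 transcript per gene, with replicates kept apart. Processing notes name cutadapt, STAR and GRCm39, and the methods name Salmon for RNA-seq, without saying whether that covers these RNA libraries. Versions, counter and read filters are not given in the sources used here. Transcripts not listed in a library were set to 0. RPKM times length were whole multiples of 1 read (within 0.01 reads), which gave the depth and the reads for voom.

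RPKM were scaled within an assay by median-of-ratios factors, transcripts with a mean of at least 1 were kept, and the log2(RPKM + 0.5) values entered limma (version 3.58.1, R 4.3.3, with lmFit and a trended eBayes, 3 groups in a model, two-sided, Benjamini-Hochberg over all transcripts tested, threshold 0.05). TE was the interaction of assay and treatment. The fits were also run on reads simulated with the same spread for all genes, which could check the code but not the error rates in these data. Alternatives were no scaling, quantile normalization, pseudocounts of 0.1 and 1, no filter or at least 5, no trend, voom on the recovered reads, a replicate block, only the 2 groups compared, leaving out 3 abundant RNAs, and leaving out each library.

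The genes and lists were chosen with earlier results of these data known. All genes are named under their complex. Values in every library are given for the 5 largest called rises and falls in footprints at 21 h, the 3 largest in RNA, and paralogues of which only some were called, and the 2 largest called changes are given for each partner list. Counting intervals (95%) are exact and cover counting error only.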

Additional observations from a re-analysis of the deposited data

Results flagged for a closer look

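These values were looked at again because the effect of Cis differed between 6 and 21 h by limma's test of that difference (adjusted p under 0.05), the PBS libraries being common to both. In footprints the log2 difference, 21 h minus 6 h, was -3.18 for Trappc9, -2.56 for Exoc6b, -1.79 for Vps13b, -1.78 for Vps8, -1.21 for Vps53, -1.03 for Exoc6, -0.90 for Vps41, -0.54 for Vps35l, -0.51 for Vps50, -0.39 for Exoc7 and 0.58 for Trappc2l. Exoc7 is in this group without a call at 21 h against PBS (-0.34 ± 0.13). In RNA it was -2.99 for Exoc6b, -2.66 for Trappc9, -1.94 for Vps8, -1.48 for Vps13b, -1.15 for Vps41, -1.12 for Vps53, -0.57 for Vps25 and 1.18 for Vps37b. For Vps25, RNA had 19.0 and 22.8 RPKM in PBS, 29.3 and 25.2 at 6 h and 18.1 and 22.4 at 21 h, so the 6 h libraries were the high ones. Several of these calls were lost under alternatives, in footprints those for Vps35l (11 of 16 alternatives), Exoc7 (10 of 16), Vps50 (9 of 16), Trappc2l (3 of 16) and Exoc6 (1 of 16), and in RNA those for Vps25 (8 of 17), Vps13b (3 of 15), Vps37b (2 of 17) and Vps53 (2 of 16). Groups of 2 libraries are too small for a search for outlying samples.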

How the results depend on the processing

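No called gene changed sign under any alternative run. Of the 27 calls in footprints at 21 h against PBS 14 stood under every alternative that tested the gene, each library left out included. So did 6 of 11 between 6 and 21 h, and in RNA 5 of 12 and 4 of 8. Some alternatives, such as the filter of 5, left low genes untested. In footprints the calls for Vps8, Vps13a, Vps13b and Vps13d were tested under 15 alternatives and the others under 16. Of the RNA calls that stood, only those for Vps41 were tested under all 17. Leaving out a library gave 6 to 9 higher and 11 to 15 lower genes in footprints at 21 h (11 and 16 with all), 0 to 1 and 6 to 11 between 6 and 21 h (1 and 10), 0 to 4 and 5 to 8 in RNA at 21 h (4 and 8), 0 to 2 and 4 to 7 between 6 and 21 h in RNA (1 and 7), and 0 to 1 lower in footprints at 6 h. At 6 h in footprints the filter of 5, the fit of only 2 groups, a pseudocount of 1 and quantile normalization each called 1 gene lower (0 otherwise). That is 1.69 to 2% of the genes, beside 1.16 to 2.21% of all transcripts. Voom called 2 higher and 8 lower (3.45 and 13.8%, beside 4.37 and 7.92% of all), with 2 lower in RNA (3.51%, beside 1.82% of all). At 21 h, 7 genes were higher in footprints without the trend (12.1%, beside 15.8% of all transcripts). Lower genes in footprints at 21 h numbered 12 without scaling or with only the 2 groups fitted, and 13 with quantile normalization (20.7, 20.7 and 22.4% of the genes, beside 19, 18.5 and 19.4% of all transcripts). Voom called 3 higher and 15 lower in footprints between 6 and 21 h (5.17 and 25.9% of the genes, beside 17.1 and 18% of all transcripts). In footprints at 21 h it called 12 higher and 19 lower (20.7 and 32.8%, beside 21.8 and 23% of all). In RNA at 21 h it called 6 higher and 10 lower (10.5 and 17.5%, beside 15.7 and 16.1% of all). The RPKM filter of 5 kept 29 genes in RNA. It left 1 lower at 21 h (3.45%, beside 13.4% of all transcripts) and 2 lower between 6 and 21 h (6.9%, beside 10.7% of all). Without scaling the median RNA change of the genes between 6 and 21 h was 0.07 in place of -0.08, as the median of all transcripts moved from 0.01 to 0.15. No TE call was made under any alternative. Replicate numbers did not pair the libraries (correlations of replicate differences between groups from -0.014 to 0.021). In footprints the replicate block called 11 genes higher and 13 lower at 21 h (19 and 22.4%, beside 17.9 and 19.4% of all). Between 6 and 21 h it called 1 higher and 7 lower (1.72 and 12.1%, beside 13.5 and 14.7% of all). Under it Trappc8, Trappc12, Vps45 and Trappc13 lost their calls at 21 h, and Exoc7, Vps35l and Vps50 theirs between 6 and 21 h. In RNA it called 4 higher and 8 lower at 21 h and 1 higher and 7 lower between 6 and 21 h. RNA depth limits the low genes: Vps8 and Exoc6b had 2 and 1 reads at 21 h.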
